A study of Mus musculus with 8 samples.

Results

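The mRNAs described here encode 10 proteins that build or bind the core of stress granules: G3bp1, G3bp2, Caprin1, Usp10, Ubap2l, Tia1, Tial1, Atxn2, Pabpc1 and Fmr1. They are a named list, and the rule that names them uses no measured value. Each symbol was matched through the GENCODE M21 annotation to an Ensembl identifier of the deposited count table. All 10 were found among the 39017 identifiers of the table, and all 10 passed the filter on low counts that left 18952 genes for testing.

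The cells were mouse embryonic fibroblasts taken from E13.5 embryos, and every library came from RNA selected for poly(A) tails. Control total and knockout total libraries held RNA of whole, unstressed cells. Control granule and knockout granule libraries held RNA of a fraction enriched for stress granules by centrifugation, from cells under arsenite (500 µM sodium arsenite, 30 min). In knockout cells the gene Mettl3 was deleted, whose product is the catalytic subunit of the methyltransferase for N6-methyladenosine (m6A) in mRNA, by Cre recombinase activated with 500 nM 4-hydroxytamoxifen for 48 h. Loss of the protein and of m6A was examined after 7 days, and cells were collected on the next day. Whether control cells carried the same alleles, carried Cre or received the drug is not given in the sources used here. Each of the 4 groups had 2 libraries, described as biological replicates, so p-values rest on the spread between replicates of that kind. Granule libraries differ from total libraries in both fraction and stress, and these cannot be told apart.

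Stress granules are cytoplasmic assemblies of mRNA and protein that form when translation initiation stalls, as it does when arsenite leads to phosphorylation of eIF2α. G3BP1 and its paralog G3BP2 bind the mRNA released from ribosomes and condense with it. CAPRIN1 binds G3BP and promotes assembly, USP10 competes for the same site on G3BP and opposes it, and UBAP2L, TIA1, TIAL1, ataxin-2, the poly(A)-binding protein PABPC1 and FMRP (the product of Fmr1) are further RNA-binding components. The libraries measure the mRNAs of these proteins, not the proteins. A granule to total ratio sets a relative level in the fraction of stressed cells against that in unstressed whole cells and is not a share of the mRNA.

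METTL3 modifies adenosines mostly within a short consensus whose core is GGACT, often near the stop codon. These letters were searched on the sense strand of the longest protein-coding transcript of each gene. No m6A map was used, so a match is a run of letters and not a measured site. Windows of 21 bases are shown for Fmr1, the member called between fractions of control cells, and for the 5 members whose granule libraries lay above the total libraries in control cells and below them in knockout cells. Each window is the match nearest the stop codon, written 5′ to 3′ as DNA, with the searched letters in capitals.

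G3bp1: tacagactGGACTttcacggc

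G3bp2: agaattaaGGACTgagaaatg

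Caprin1: ttgtaaagGGACTgttttcat

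Usp10: cagaagctGGACTgttgcctg

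Ubap2l: tgcatggaGGACTgcaacaga

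Fmr1: cctgaattGGACTatataact

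On GRCm38 these windows lie at chr11:55499937-55499957 (plus strand, G3bp1), chr5:92054550-92054570 (minus strand, G3bp2), chr2:103766671-103766691 (minus strand, Caprin1), chr8:119956934-119956954 (plus strand, Usp10), chr3:90028356-90028376 (minus strand, Ubap2l) and chrX:68715977-68715997 (plus strand, Fmr1). Those of G3bp1, G3bp2, Caprin1, Usp10 and Fmr1 are in the 3′ UTR, in the last exon. The matches of those 5 begin 279, 221, 118, 174 and 312 nt after the first base of the stop codon. The Ubap2l window is in the coding sequence, in exon 10, and is the single match of that transcript.

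Every member held the letters at least once, with 1 match in Ubap2l and Pabpc1, 2 in Tial1, Atxn2 and Fmr1, 3 in G3bp2 and Caprin1, 4 in Tia1, 8 in G3bp1 and 9 in Usp10. A match is common: 91.8% of the 15381 protein-coding genes tested had at least 1, and among transcripts within 10% of a member's length the share was between 94.9% and 99.4%. Per kb, the members' median was 0.470 matches against 1.06 for all protein-coding genes tested. Usp10 stood highest among the members, with 2.42 per kb, higher than 94.2% of protein-coding genes, and 7 of its 9 matches in the coding sequence. G3bp1, with 1.19 per kb, was also above the median of all protein-coding genes tested.

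Total counts per library ranged from 67257220 to 123508539, and the lowest count of any member in any library was 1262 (Tia1 in control total replicate 1). For the closest replicate pairs, such as Tial1 in knockout granules, the replicates differ by no more than counting error. No pair of libraries was identical. Levels are given as CPM (counts scaled to a common library size of 1e+06) after trimmed-mean-of-M-values (TMM) scaling, and differences as log2 fold changes from edgeR's quasi-likelihood F-test fitted to all 8 libraries. A gene is said to be called at an adjusted p under 0.05 over all genes tested. Mettl3, measured as a check of the labels, lay between 15.4 and 25.4 CPM in the 4 control libraries and between 5.56 and 7.35 in the 4 knockout libraries, with a log2 fold change of -1.91 in total RNA (SE 0.27, adjusted p = 0.0345). Which exon was deleted is not given in the sources used here, and reads from remaining exons still count. The knockout total replicates differed from each other more than those of any other group. Mitochondrial transcripts took 7.60% of the counts of replicate 1, 6.16% and 8.81% in the knockout granule libraries, and 0.590% to 0.881% in the other 5, replicate 2 of knockout total among them (0.807%). By this share replicate 2 is the library unlike the rest of its genotype, so results that depend on this pair are given without each. No batch is named in the labels, and none could be compared.

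Fibroblast markers, all 8 of which were detected in every group, summed to 4971 to 5847 CPM (by library size) in control total and 6040 to 6087 in control granule libraries, and to 3411 to 3681 and 7427 to 8245 in those of knockout cells. The 5 epithelial markers summed to 222 to 340, 650 to 686, 44.5 to 94.0 and 548 to 671 in the same order, nearly all of it Krt18. Macrophage, endothelial, neural, erythroid and muscle lists each summed to at most 90.7 CPM in any library, and Sox2 was at 0 in knockout granule libraries. The epithelial sum was higher in granule than in total libraries of both genotypes, and its part in the members' values was not tested. In bulk RNA, fewer cells of a type and less RNA per cell cannot be told apart.

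The members differed widely in level. Pabpc1, which coats poly(A) tails, stood at 312 ± 23.0 CPM per kb of exonic sequence in control total libraries (SD, n = 2, as are the values that follow). G3bp1 followed at 61.6 ± 0.610 and Caprin1 at 34.3 ± 6.86. Ubap2l (14.5 ± 1.01), Usp10 (13.4 ± 0.157), Atxn2 (7.29 ± 0.265) and Tial1 (6.61 ± 0.286) came next. G3bp2 (5.16 ± 1.44), Fmr1 (4.34 ± 2.08) and Tia1 (1.63 ± 0.640) were the lowest per kb. Among neighbours in this order, G3bp2 and Fmr1 were the pair whose replicate values overlapped. The order depends on the length used: per kb of the longest protein-coding transcript Ubap2l was second at 66.6 ± 4.62, with replicates that overlapped those of G3bp1 (64.9 ± 0.643). Pabpc1 was first and Tia1 last in control total libraries with either length. Per kb of the longest transcript the values of Tia1 (5.74 ± 2.25) overlapped those of Fmr1 (8.83 ± 4.22).

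Within control granule libraries Fmr1 held the fourth place per kb of exonic sequence at 25.1 ± 2.48, above Ubap2l at 20.5 ± 0.863 and Usp10 at 14.3 ± 0.0696. G3bp2 (10.7 ± 0.210) overlapped Atxn2 (10.6 ± 0.594) there and lay above Tial1 (8.93 ± 0.151), which it was below in control total libraries. Tia1 was again the lowest at 2.81 ± 0.0339. Per kb of the longest transcript Fmr1 held the fifth place there. In knockout granule libraries Fmr1 was sixth at 11.0 ± 1.33, with values that overlapped those of Usp10 at 11.1 ± 0.452, and Pabpc1 (436 ± 64.2), G3bp1 (54.8 ± 2.79) and Caprin1 (18.9 ± 0.261) kept the first 3 places. Summed, the members took 0.366% ± 0.0126 of the counts of control total and 0.529% ± 0.00526 of control granule libraries, and in knockout cells 0.732% ± 0.385 of total and 0.418% ± 0.0367 of granule libraries. Without Pabpc1 the sum was 0.140% and 0.165% in control total and 0.204% and 0.196% in control granule libraries. In knockout cells it was 0.280% and 0.168% of total and 0.128% and 0.127% of granule libraries. Knockout granule libraries thus lay above control total libraries with Pabpc1 in the sum and below them without it.

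**Figure D1:**
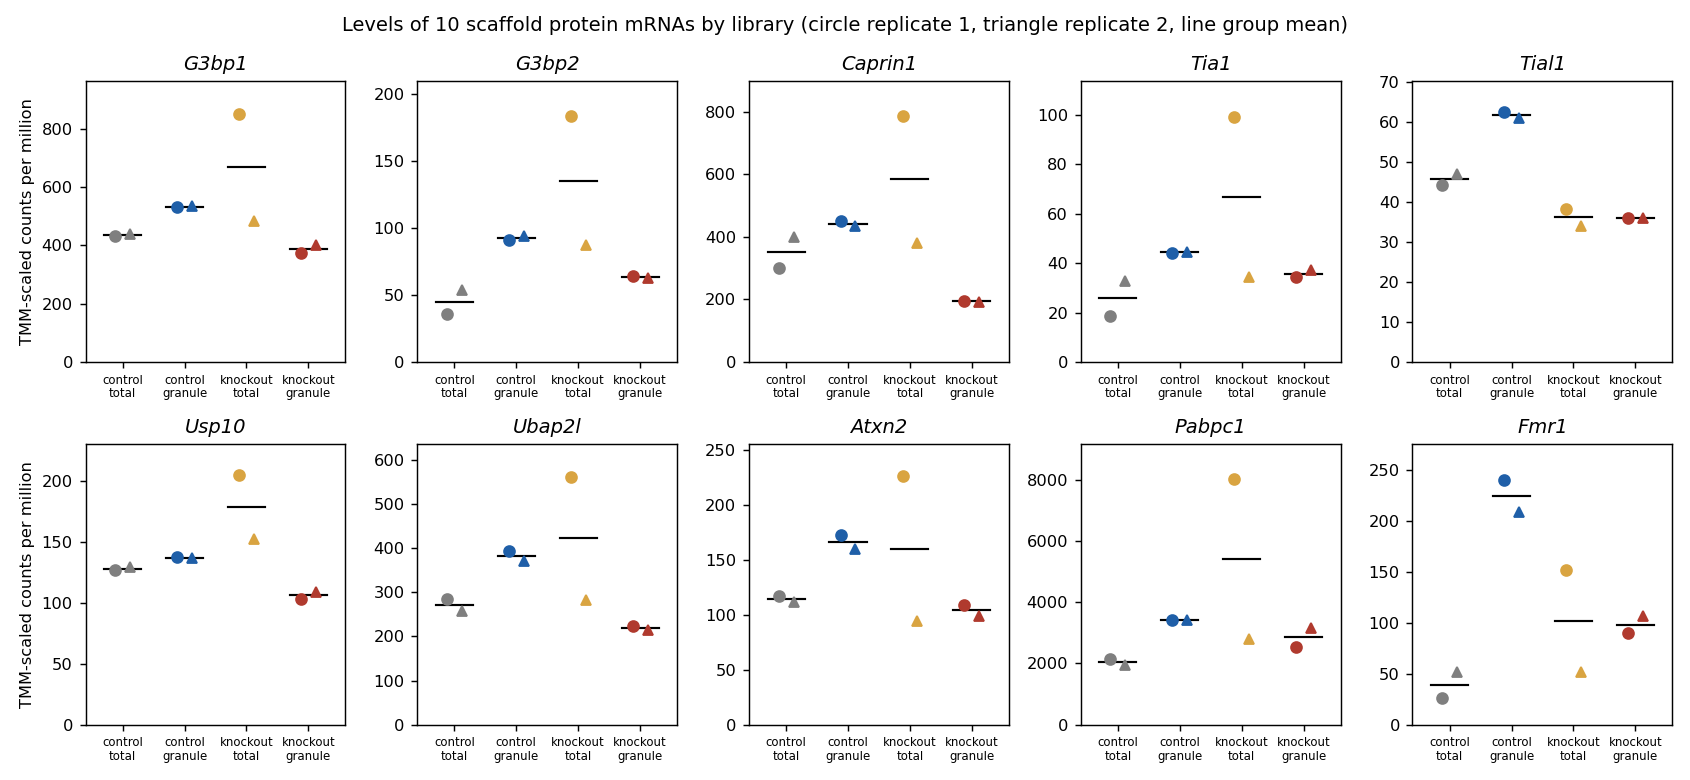
TMM-scaled CPM of each member mRNA (vertical axis, from 0) in the 8 libraries, grouped as control total, control granule, knockout total and knockout granule. Circles are replicate 1, triangles replicate 2 and lines the group mean. Knockout total replicate 1 is the highest library for 8 members, and control granule libraries lie above control total libraries for all 10.

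The first comparison set the granule fraction of control cells against their total RNA. All 10 members had both granule libraries above both total libraries, against 35.2% of all genes tested, and a log2 fold change above 0, against 47.4%. Usp10 did so by the least and changed sign with other scalings, as given below. The members' median log2 fold change was 0.52, against -0.06 over all genes. Of the 10, only Fmr1 was called, where 10.1% of all genes were. DESeq2 called G3bp2 as well, 2 members against 21.5% of genes.

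Fmr1 (ENSMUSG00000000838, chromosome X, 68678541 to 68717963) encodes FMRP, a repressor of translation. Its level was 25.8 and 52.1 CPM in control total libraries and 240 and 209 CPM in control granule libraries. Both granule libraries lay far above both total libraries, with log2 ratios from 2.0 to 3.22 over the 4 pairings. In log2 it rose by 2.53 (SE 0.54, adjusted p = 0.0296), higher than 98.3% of genes tested. The spread is estimated over all 4 groups. Leaving out any control library or either knockout granule library gave log2 fold changes from 2.11 to 3.17. The call was lost in these fits, in which far fewer of all genes were called than in the main fit. With the replicate number as a block the rise was 2.51 in log2 (SE 0.59, edgeR adjusted p = 0.0654), and 581 of 18952 genes were called. Removing the trend with transcript GC content in each library left a rise of 1.44 in log2 (SE 0.23, adjusted p = 0.00502).

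Of the paralogs that nucleate granules, G3bp2 (ENSMUSG00000029405, chromosome 5, 92052146 to 92083719) stood at 35.9 and 53.5 CPM in total and at 91.2 and 93.8 CPM in granule libraries. Its log2 fold change of 1.05 (SE 0.38) did not pass the test (adjusted p = 0.112). Exons of the antisense lincRNA Gm26582 cover most of the 23.7% of G3bp2's exonic bases shared with other genes, and whether reads were assigned by strand is not given in the sources used here, so this count is uncertain. G3bp1 (ENSMUSG00000018583, chromosome 11, 55469685 to 55504838) stood at 432 and 438 CPM in total and at 531 and 536 CPM in granule libraries, with a difference of 0.29 in log2 (SE 0.30, adjusted p = 0.547). The replicates of G3bp1 lay close together in both control groups, and the groups did not overlap.

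The partners of G3BP, Caprin1 and Usp10, differed less between the fractions than G3bp2. Caprin1 (ENSMUSG00000027184, chromosome 2, 103762941 to 103797649) stood at 301 and 401 CPM in total and at 451 and 433 in granule libraries (log2 fold change 0.33, SE 0.36, adjusted p = 0.566). Usp10 (ENSMUSG00000031826, chromosome 8, 119910360 to 119957560) stood at 127 and 129 CPM in total and at 137 and 136 in granule libraries, a log2 difference of 0.10 (SE 0.25, adjusted p = 0.822). That of Usp10 was the smallest of the 10 and turned to -0.13 with upper-quartile scaling and -0.03 with library size alone. Upper-quartile scaling moved the median of all genes from -0.06 to -0.29 in this comparison, and the members' median stayed 0.57 above it (0.58 with TMM and with library size alone).

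Ubap2l (ENSMUSG00000042520, chromosome 3, 90000140 to 90052628), whose protein acts with G3BP1 in assembly, stood at 285 and 258 CPM in total and at 393 and 370 in granule libraries (log2 fold change 0.49, SE 0.33, adjusted p = 0.357). For Tia1 (ENSMUSG00000071337, chromosome 6, 86404219 to 86433405), an RNA-binding protein with a prion-like domain, the values were 18.6 and 32.8 CPM against 43.9 and 44.7 (log2 fold change 0.79, SE 0.49, adjusted p = 0.316). Its paralog Tial1 (ENSMUSG00000030846, chromosome 7, 128439777 to 128461717) had 44.2 and 47.0 CPM in total and 62.3 and 60.9 in granule libraries (log2 fold change 0.43, SE 0.24, adjusted p = 0.257). In these 3 genes the granule values lay closer together than the distance to the nearest total value, yet none passed the test.

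Pabpc1 (ENSMUSG00000022283, chromosome 15, 36595661 to 36609668) stood at 2149 and 1937 CPM in total and at 3427 and 3423 in granule libraries, which is 0.75 in log2 (SE 0.46, adjusted p = 0.31). It has processed pseudogene copies, and how reads shared with them were counted is not given in the sources used here, so its count is uncertain. Atxn2 (ENSMUSG00000042605, chromosome 5, 121711337 to 121816493), whose product binds the poly(A)-binding protein, stood at 117 and 111 CPM in total and at 173 and 160 in granule libraries (log2 fold change 0.54, SE 0.39, adjusted p = 0.381). Both genes had granule values above total values with no overlap.

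How many members were called depended on which libraries entered the fit. Without knockout total replicate 1, which is not part of this comparison, 7 of 10 were called higher (G3bp2, Tia1, Tial1, Ubap2l, Atxn2, Pabpc1 and Fmr1), beside 40.6% of all genes. The same number was called without knockout total replicate 2 (39.9% of genes), and 6 were called in a fit of the 4 control libraries alone (42.4%). G3bp1, Caprin1 and Usp10 were called in none of these fits. With the GC trend removed 7 members were above 0 and 1 was called (19.7% of genes), while Caprin1, Tia1 and Tial1 turned to -0.52, -0.12 and -0.53. With the GC trend removed and without knockout total replicate 1, 6 were called higher and 2, Caprin1 and Tial1, lower (42.1% of genes).

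**Figure D2:**
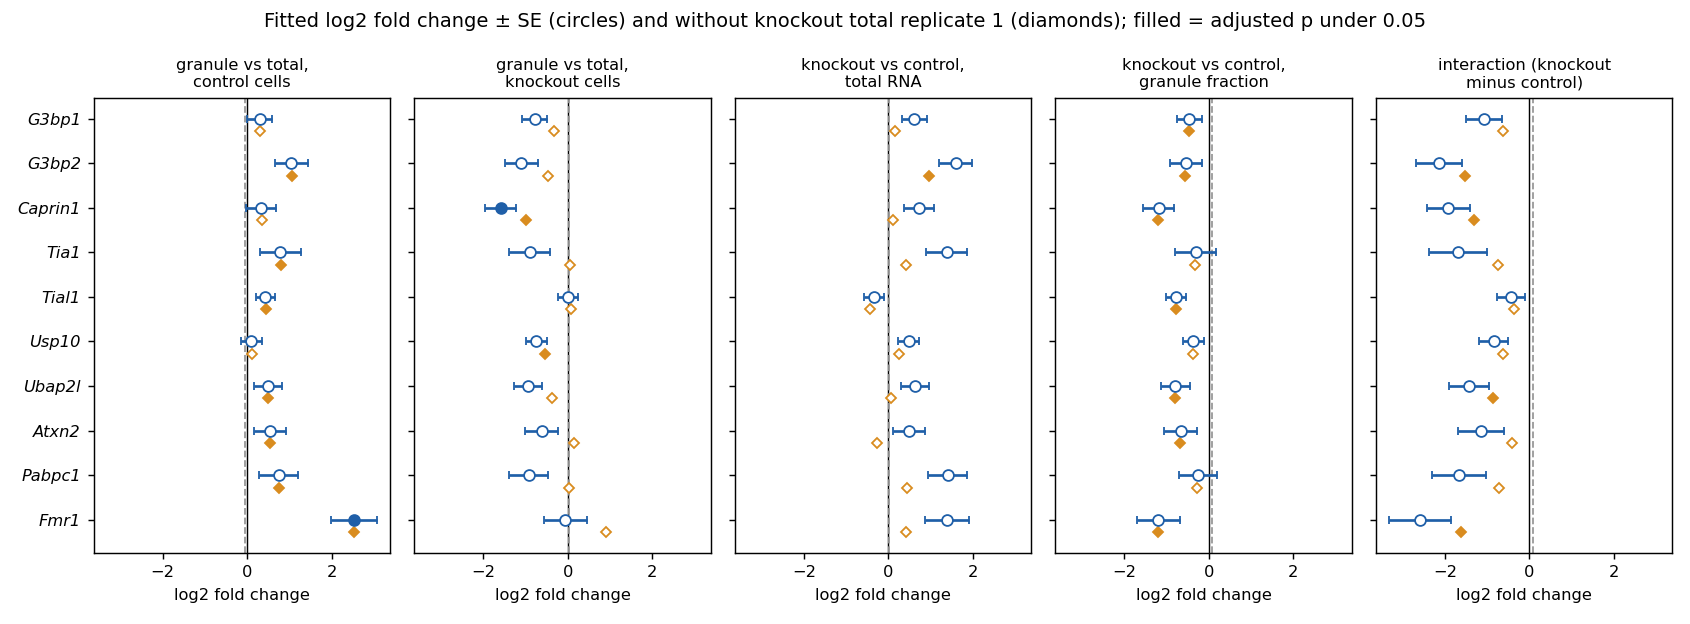
Fitted log2 fold change ± SE of each member in the 5 contrasts (circles), and the value without knockout total replicate 1 (diamonds); the dashed line is the median of all genes, and filled symbols passed an adjusted p of 0.05. Filled circles are Fmr1 in the first contrast and Caprin1 in the second, and the diamonds of the contrasts that involve knockout total libraries lie nearer 0 than the circles for most members.

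In knockout cells the same comparison gave values on the other side of 0. All 10 log2 fold changes were below 0, against 48.3% of genes, with a median of -0.85 against 0.04 over all genes. For 5 members (G3bp1, G3bp2, Caprin1, Usp10 and Ubap2l) both granule libraries lay below both total libraries, against 26.5% of genes, and for the other 5 the groups overlapped. Only Caprin1 was called, where 17.6% of all genes were. DESeq2 called 4 lower (G3bp2, Caprin1, Usp10 and Ubap2l), beside 26.9% of genes. The signs of Tial1 and Fmr1, both close to 0, turned with scaling by library size alone (to 0.07 and 0.06), and that of Tial1 with upper-quartile scaling (0.01).

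Caprin1 stood at 787 and 380 CPM in knockout total libraries and at 195 and 192 CPM in knockout granule libraries. The lower total library was still well above both granule libraries. In log2 Caprin1 fell by 1.59 (SE 0.37, adjusted p = 0.0247), and by 0.98 (SE 0.20, adjusted p = 0.00237) without knockout total replicate 1. The call was lost when either knockout granule library, either control granule library or control total replicate 2 was left out. Fewer of all genes were called in each of those fits than in the main fit. It was also lost when only these 4 libraries were fitted (adjusted p = 0.134), where 0 of all genes were called. Log2 fold changes lay between -1.69 and -1.58 in all these fits. With the replicate number as a block Caprin1 was not called either, beside 1898 of 18952 genes. With the GC trend removed it fell by 1.47 (adjusted p = 0.00092).

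G3bp1 stood at 852 and 483 CPM in knockout total and at 373 and 401 in knockout granule libraries (log2 fold change -0.79, SE 0.30, adjusted p = 0.11). G3bp2 stood at 183 and 86.9 CPM in total and at 63.9 and 62.5 in granule libraries (log2 fold change -1.10, SE 0.38, adjusted p = 0.0829). Usp10 stood at 204 and 152 CPM in total and at 103 and 109 in granule libraries (log2 fold change -0.75, SE 0.25, adjusted p = 0.0713). For these G3BP genes and for Usp10 the groups did not overlap, but none of the 3 passed the test. The corresponding values of Ubap2l were 562 and 283 CPM in total and 225 and 216 in granule libraries (log2 fold change -0.94, SE 0.34, adjusted p = 0.0896).

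The remaining members overlapped between the fractions. Knockout total values were 99.4 and 34.6 CPM for Tia1, 226 and 94.4 for Atxn2, 8043 and 2787 for Pabpc1, and 152 and 52.2 for Fmr1, and in each the granule values lay between these or close to the lower one. Granule values were 34.5 and 37.1 CPM for Tia1, 109 and 99.4 for Atxn2, 2552 and 3145 for Pabpc1, and 89.7 and 107 for Fmr1. Tial1 had 38.2 and 34.0 CPM in total and 36.0 and 35.9 in granule libraries. The spread between the knockout total replicates was thus larger than the difference between the means of the fractions in all 5 genes, and the adjusted p-values of the 5 ran from 0.195 to 0.99.

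The direction of some members in this comparison depended on knockout total replicate 1. Set against that library, all 10 members had both granule libraries lower. Set against knockout total replicate 2, 5 members had both granule libraries lower and 3 (Tial1, Atxn2 and Fmr1) had both higher. The shares of all genes with such patterns were not computed, so these counts do not set the members apart. Fmr1 showed the widest gap, with log2 granule to total ratios of -0.76 and -0.51 against replicate 1 and 0.78 and 1.03 against replicate 2. For Caprin1 all 4 pairings were below 0, from -2.04 to -0.96. Without knockout total replicate 1 the median of the members was -0.15 (-1.37 without replicate 2), 5 were above 0, and 2 were called lower, Caprin1 and Usp10 (34% of genes). As many as 8 were called lower without knockout total replicate 2 (48.2%), and with the GC trend removed 4 were (G3bp2, Caprin1, Tia1 and Usp10, beside 32.5%).

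**Figure D3:**
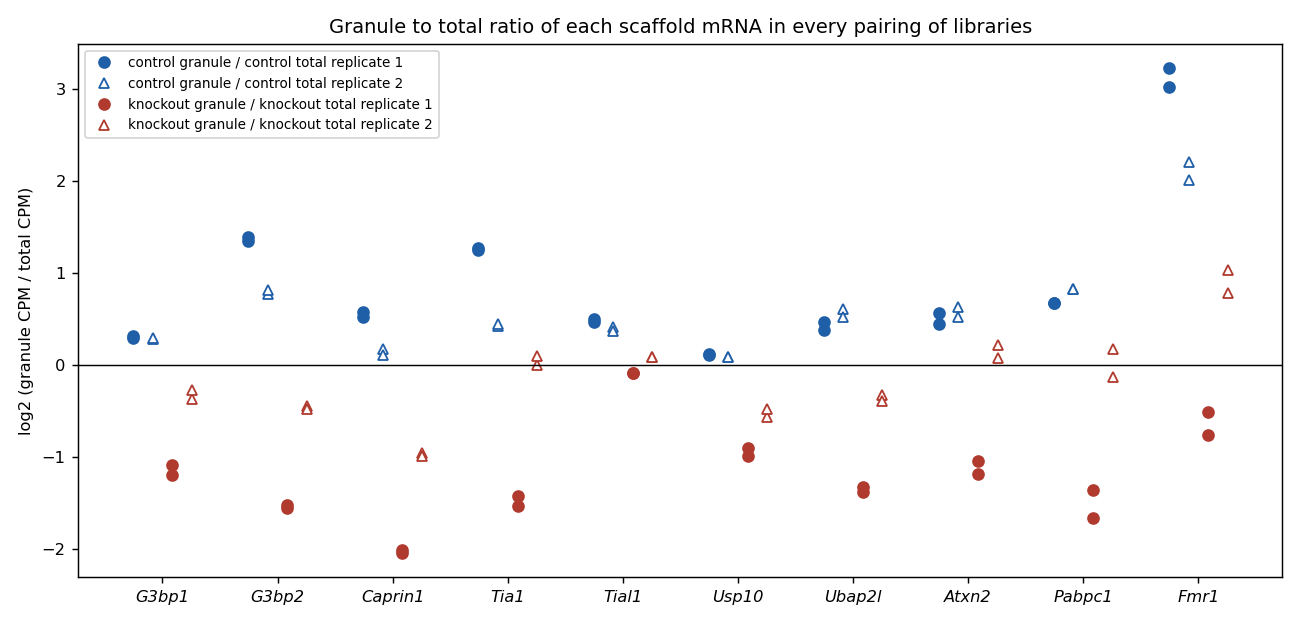
Log2 ratio of granule to total CPM (vertical axis) of each member for every pairing of a granule with a total library of the same genotype; blue is control, red knockout, filled circles pairings with total replicate 1 and open triangles with total replicate 2. All control pairings lie above 0, all pairings with knockout total replicate 1 lie below 0, and those with knockout total replicate 2 lie on either side of 0.

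The effect of the knockout on total RNA of unstressed cells was compared next. Log2 fold changes were above 0 for 9 members, against 50.8% of genes, with Tial1 below, and the median was 0.69 against 0.02. In 6 members (G3bp1, G3bp2, Tia1, Usp10, Pabpc1 and Fmr1) both knockout libraries lay above both control libraries, against 24.4% of genes, and in Tial1 both lay below, against 24.7%. For Fmr1 the nearest values, 52.2 CPM in a knockout and 52.1 CPM in a control library, differ by less than counting error, so that its groups only just fail to overlap. edgeR called 0 members, with 4 at an unadjusted p under 0.05, and 0.412% of all genes were called, 24.8% at that unadjusted p. DESeq2 called 4 (G3bp2, Tia1, Pabpc1 and Fmr1), beside 13.2% of genes.

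G3bp2 had the lowest adjusted p of the 10. Its 4 values, given above, run from 35.9 and 53.5 CPM in control to 183 and 86.9 CPM in knockout libraries, or 1.59 in log2 (SE 0.39, adjusted p = 0.118). Leaving out knockout total replicate 1 gave 0.96 (SE 0.23, adjusted p = 0.0267), the single call among the members there (5.52% of genes), and with the GC trend removed it was again the single call (3.92% of genes). The next in log2 fold change were Pabpc1 with 1.41 (SE 0.46, adjusted p = 0.151), Tia1 with 1.38 (SE 0.49, adjusted p = 0.164) and Fmr1 with 1.39 (SE 0.52, adjusted p = 0.169). Tial1 differed by -0.34 (SE 0.24, adjusted p = 0.384), in the direction opposite to Tia1.

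The size of this comparison depended on which knockout total library was used. Without replicate 1 the median of the members was 0.21, against 0.01 over all genes, and Atxn2 turned to -0.28. Without replicate 2 the median was 1.21, against 0.03. As many as 9 members were called (all but Tial1) without knockout total replicate 2, beside 47.8% of genes. For Caprin1, Ubap2l and Atxn2 the lower knockout value lay below or within the control values. The replicates of knockout total differed in the same direction for all 10 members, with replicate 1 higher, and by more than 2-fold for 6 of them (40.2% of the 10261 genes whose CPM averaged 5 or more). For the members the absolute log2 ratio of the replicates had a median of 1.06 in that group, against 0.146 in control total, 0.0373 in control granule and 0.0933 in knockout granule libraries. Over those 10261 genes it was 0.814, 0.312, 0.101 and 0.135 in the same order.

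This replicate ratio went with GC content across genes. Genes were cut by transcript GC content into 10 bins of 1005 or 1006 genes, which do not hold all 18952 genes tested. The bin of lowest GC content had a median log2 ratio of knockout total replicate 1 to replicate 2 of 1.32, and the bin of highest GC content one of -1.35. In control total libraries the corresponding medians were -0.68 and 0.35. The members' transcripts run from 39.2% GC (Fmr1) to 54.7% (Atxn2), with a median of 45.4% against 50.4% over protein-coding genes. Members of low GC content (Fmr1 1.54, Tia1 1.52, G3bp2 1.08 and Caprin1 1.05) were near the medians of their bins, and Tial1 (0.17) was 1.15 below. Those of higher GC content lay above the medians of their bins, by 1.98 in Atxn2, 1.14 in Usp10, 1.09 in Pabpc1, 1.07 in Ubap2l and 0.62 in G3bp1. What made the replicates differ was not tested.

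**Figure D4:**
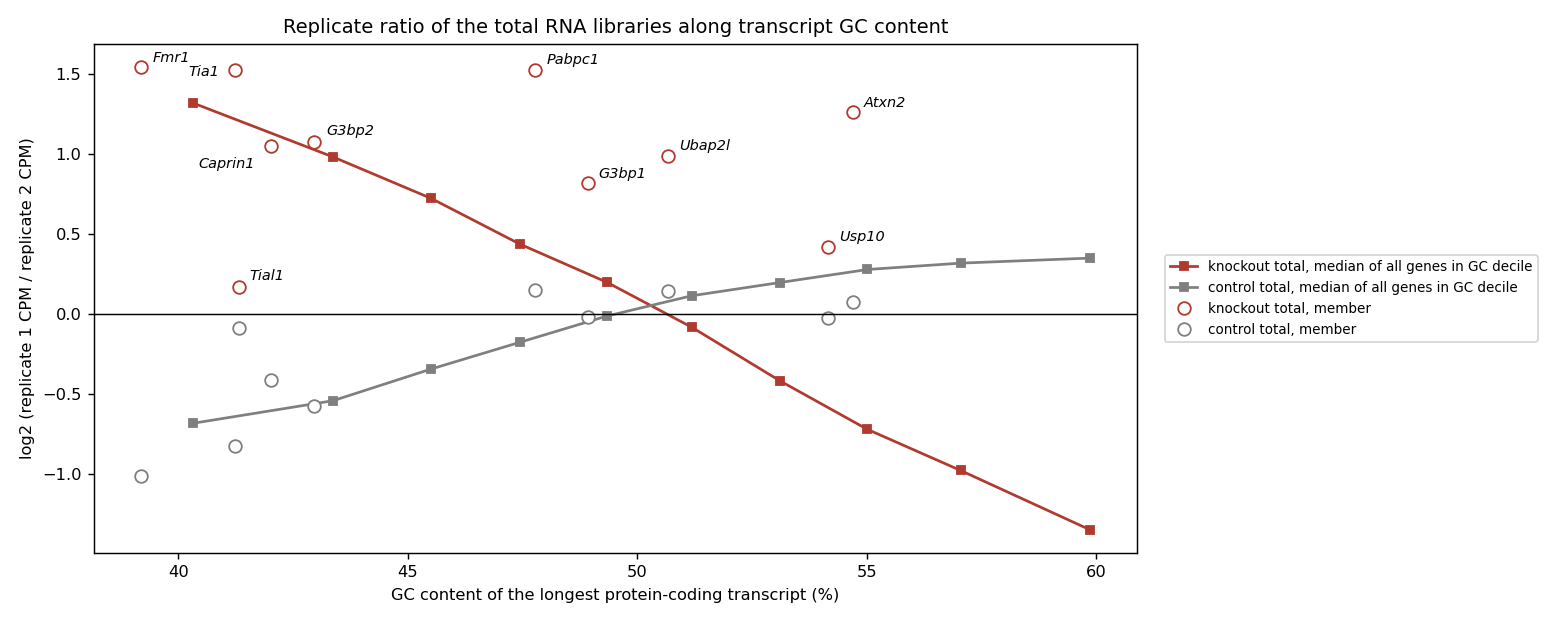
Log2 ratio of replicate 1 to replicate 2 in total RNA (vertical axis) against GC content of the longest protein-coding transcript (horizontal axis, percent). Squares joined by lines are medians of the genes in each of 10 bins of GC content (1005 or 1006 genes each, not all genes tested). Open circles are the members, red is knockout and grey control. In knockout total libraries all 10 members lie above 0, and Atxn2, Usp10, Pabpc1 and Ubap2l lie more than 1 above the median of their bin.

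Between granule fractions the knockout comparison was the steadiest in direction. All 10 members had both knockout granule libraries below both control granule libraries, against 36.6% of genes, and a log2 fold change below 0, against 46.5%. Direction was the same for every member in every alternative fit. The median was -0.61, against 0.08 over all genes, and upper-quartile scaling moved these to -0.46 and 0.23. In the fit of all 8 libraries edgeR called 0 members, with 3 at an unadjusted p under 0.05, where 9.45% of genes were called and 27.9% had such a p. DESeq2 called 2, Caprin1 and Tial1, beside 17.8% of genes.

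The lowest adjusted p, 0.0775, was shared by Caprin1 and Tial1. Caprin1 stood at 451 and 433 CPM in control and at 195 and 192 CPM in knockout granule libraries, with no overlap (log2 fold change -1.19, SE 0.36). Tial1 stood at 62.3 and 60.9 CPM in control and at 36.0 and 35.9 in knockout granule libraries (log2 fold change -0.78, SE 0.24). Fmr1 stood at 240 and 209 CPM in control and at 89.7 and 107 in knockout granule libraries (log2 fold change -1.19, SE 0.52, adjusted p = 0.18). In all 3 the distance between the groups was larger than that between replicates.

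The values of G3bp1 were 531 and 536 CPM in control and 373 and 401 in knockout granule libraries (log2 fold change -0.46, SE 0.30, adjusted p = 0.355). Those of G3bp2 were 91.2 and 93.8 against 63.9 and 62.5 CPM (log2 fold change -0.55, SE 0.38, adjusted p = 0.376). Ubap2l (393 and 370 against 225 and 216 CPM) differed by -0.79 in log2 (SE 0.33, adjusted p = 0.17) and Atxn2 (173 and 160 against 109 and 99.4 CPM) one of -0.67 (SE 0.39, adjusted p = 0.296). Usp10, Tia1 and Pabpc1 were closer, with log2 fold changes of -0.37, -0.31 and -0.27 and adjusted p-values from 0.367 to 0.74. The Pabpc1 replicates of the knockout group, 2552 and 3145 CPM, were farther apart than the nearer of them was from the control pair at 3427 and 3423 CPM.

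When the 4 granule libraries were fitted alone, 9 members were called lower in knockout cells and Pabpc1 was not (adjusted p = 0.179), beside 57.3% of all genes. The log2 fold changes then were -1.18 for Caprin1 (SE 0.11, adjusted p = 8.67e-07), -1.18 for Fmr1 (SE 0.12, adjusted p = 2.19e-06) and -0.77 for Tial1 (SE 0.10, adjusted p = 1.38e-05). Among the 10, 7 were called without knockout total replicate 1 (39% of genes) and without knockout total replicate 2, 8 were (38.9%). With the GC trend removed 2 were called, Caprin1 and Fmr1 (23.5%), and 8 were when knockout total replicate 1 was left out as well (46.1%). The spread of the 8-library fit includes that between the knockout total replicates.

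The interaction term compares the granule to total ratio of knockout cells with that of control cells. All 10 members were below 0, against 47.3% of genes, with a median of -1.55 against 0.09 over all genes. edgeR called 0 members, with 8 at an unadjusted p under 0.05, where 0.517% of genes were called and 25.8% had such a p. DESeq2 called 4 (G3bp2, Caprin1, Ubap2l and Fmr1), beside 14.5% of genes. The lowest values were those of Fmr1 at -2.58 (SE 0.73, adjusted p = 0.107), G3bp2 at -2.15 (SE 0.54, adjusted p = 0.096) and Caprin1 at -1.92 (SE 0.51, adjusted p = 0.0994). Tial1 was nearest 0 at -0.44 (SE 0.33, adjusted p = 0.418) and turned to 0.47 with the GC trend removed.

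With knockout total replicate 1 left out the interaction of the members had a median of -0.74 (-2.21 without replicate 2), and 4 were called lower (18.6% of genes). These were Fmr1 at -1.63 (SE 0.41, adjusted p = 0.0179), G3bp2 at -1.52 (SE 0.30, adjusted p = 0.00492), Caprin1 at -1.32 (SE 0.27, adjusted p = 0.00607) and Ubap2l at -0.87 (SE 0.24, adjusted p = 0.0256). They are the same 4 that DESeq2 called on all libraries. All 10 were called without knockout total replicate 2 (46.4%), and with the GC trend removed G3bp2 and Fmr1 were (7.93%). The pattern of granule above total in control cells and below it in knockout cells, with no overlap in either, held for G3bp1, G3bp2, Caprin1, Usp10 and Ubap2l, 5 of 10 members against 7.41% of all genes.

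Ratios between members within a library do not depend on scaling and were taken from counts per kb of exonic sequence. The ratio of G3bp2 to G3bp1 was 0.0678 and 0.0997 in control total libraries and between 0.127 and 0.175 in the other 6, so control total was the group where G3bp1 was most in excess. The ratio of Caprin1 to G3bp1 was 0.362 and 0.330 in knockout granule libraries and between 0.482 and 0.638 in the other 6. Caprin1 was thus lowest beside G3bp1 in knockout granules, a difference that the fold changes of the single genes (-1.19 and -0.46) also show. Usp10 and G3bp1 kept to a narrower range, from 0.177 to 0.233 over the 8 libraries.

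Fmr1 and the TIA pair varied most. The ratio of Fmr1 to G3bp1 was 0.357 and 0.307 in control granule, 0.189 and 0.210 in knockout granule, 0.0470 and 0.0938 in control total and 0.141 and 0.0851 in knockout total libraries. Granule libraries lay above total libraries in both genotypes for this ratio, with no overlap, also where the level of Fmr1 itself overlapped. The ratio of Tia1 to Tial1 was 0.184 and 0.306 in control total, 0.309 and 0.322 in control granule, 0.420 and 0.452 in knockout granule and 1.14 and 0.446 in knockout total libraries. Every knockout library was above every control library for Tia1 to Tial1. These ratios were not tested, and lengths set their size but not their order across libraries.

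**Figure D5:**
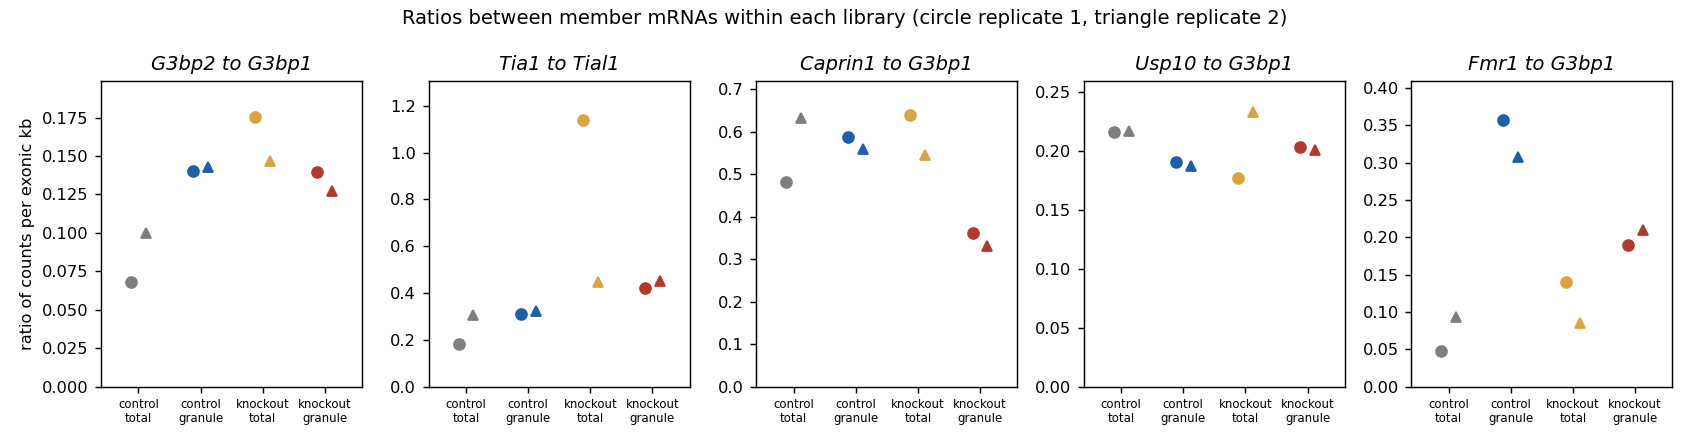
Ratio of counts per exonic kb between pairs of members (vertical axis, from 0) in each library, by group; circles are replicate 1 and triangles replicate 2. Caprin1 to G3bp1 is lowest in the knockout granule libraries (0.362 and 0.330), and Fmr1 to G3bp1 is highest in the control granule libraries (0.357 and 0.307).

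The transcripts of the members were long, with a median of 4430 nt against 3026 nt over protein-coding genes, and 3′ UTRs of 442 nt (Pabpc1) to 5173 nt (G3bp1), with a median of 2464.5 nt against 1058 nt. Across the 10 members the log2 granule to total ratio in control cells had a Spearman correlation of -0.52 with GC content, against -0.42 across 15381 protein-coding genes, and -0.19 with transcript length, against 0.25. The members share their libraries, and Fmr1, with the lowest GC content, also had the highest log2 granule to total ratio. With GGACT per kb the members' correlation was -0.32 (all genes -0.13). Over the other 4 comparisons the members' correlation ran from -0.41 to 0.53 with GC content, from -0.24 to 0.030 with length and from -0.10 to 0.31 with GGACT per kb. These are descriptions over 10 points.

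A list of 34 other granule proteins was read in the same way, and all were tested. In control cells 28 were above 0 in granule against total RNA, against 47.4% of genes, with a median of 0.67, and 6 were called higher and 0 lower, beside 10.1% of genes. They include the RNA helicase Ddx3x (log2 fold change 2.34, SE 0.38, adjusted p = 0.0145), Fxr1, a paralog of Fmr1 (2.24, SE 0.41, adjusted p = 0.02), Larp4, which binds poly(A) and its binding protein (2.08, SE 0.51, adjusted p = 0.0421), and Tardbp, which encodes TDP-43 (1.58, SE 0.37, adjusted p = 0.0371). Fxr1 stood at 23.7 and 34.4 CPM in total and at 143 and 132 CPM in granule libraries, a difference close to that of Fmr1. With the GC trend removed the rises of Ddx3x, Fxr1, Larp4 and Tardbp were smaller, at 1.41, 1.12, 0.95 and 0.72 in log2, and each was still called. More of the 34 were called when either knockout total library was left out, and fewer when any other library was. The same held for all genes.

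In knockout cells 22 of the 34 were below 0, against 48.3% of genes, with a median of -0.19. The 5 called lower (0 higher) are a smaller share of the list than the 17.6% of all genes called. Among them were Fam120a (log2 fold change -2.49, SE 0.55, adjusted p = 0.0218) and the Y-box proteins Ybx3 (-2.07, SE 0.38, adjusted p = 0.0118) and Ybx1 (-1.97, SE 0.47, adjusted p = 0.0271). With knockout total replicate 1 left out these 3 remained called, at -1.28, -1.39 and -0.98, but the list as a whole split into 19 above and 15 below 0, with 7 called higher and 9 lower (34% of genes). Fewer of the 34 were called when a knockout granule or a control library was left out, and fewer of all genes were. Between granule fractions 30 of 34 were lower in knockout cells, against 46.5% of genes, with a median of -0.55. The 2 called are a smaller share than the 9.45% of all genes, and among them was Hnrnpa1, which encodes a nuclear RNA-binding protein (-1.32, SE 0.26, adjusted p = 0.0239). In this comparison more of the 34 were called lower without either knockout total library, and fewer when any other library was left out, as for all genes. In total RNA 25 of the 34 were higher in knockout cells, against 50.8% of genes, with a median of 0.60. The interaction was below 0 for 32 of them, against 47.3% of genes, with a median of -1.20. Without knockout total replicate 1 these medians were 0.22 and -0.75.

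Of 8 genes of the eIF2α switch that stalls initiation, Ppp1r15a, which encodes the inducible partner of the eIF2α phosphatase, was called lower in the granule fraction of both genotypes (log2 fold change -1.90, SE 0.28, adjusted p = 0.0108 in control and -1.08, SE 0.27, adjusted p = 0.0322 in knockout cells). Eif2ak2, the kinase PKR, was called higher in knockout than in control granules (1.95, SE 0.47, adjusted p = 0.0405). Of 9 genes of granule clearance, Ulk2 was called higher in control granules than in control total RNA (1.47, SE 0.30, adjusted p = 0.0252). Each is the single call of its list in that contrast. Of all genes 10.1% were called in control cells, 17.6% in knockout cells and 9.45% between granule fractions. The calls thus do not set these short lists apart. The call of Ppp1r15a in control cells was lost when any control library was left out. Those of Ppp1r15a in knockout cells, Eif2ak2 and Ulk2 were lost when any control or knockout granule library was. Fewer of all genes were called in each of those fits than in the main fit. No other gene of either list was called in any contrast of the 8-library fit. Over the 3 lists no gene was called by edgeR between knockout and control total RNA or in the interaction, where DESeq2 called 8 and 9 of the 34 (13.2% and 14.5% of genes), 2 and 1 of the 8 and 0 of the 9.

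Over the 8 libraries the genes outside the list whose log2 CPM went most closely with that of G3bp1, among those 10261 genes, were Ppfia1 (Pearson r 0.991), Stk24 (0.989) and Polr2m (0.987). All 3 were highest in knockout total replicate 1. Polr2m, for example, had 826 CPM there and between 202 and 373 CPM in the other 7 libraries. Among the members, Ubap2l (0.96), Usp10 (0.945) and Caprin1 (0.919) went most closely with G3bp1, and Fmr1 (0.461) and Tial1 (0.162) least. These values describe 8 libraries in 4 groups and carry no test.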

How the data were processed

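RNA sequencing of 8 libraries (4 groups of 2) was analysed from the deposited table of raw counts per Ensembl gene, 1 column per library, with 0 columns unused. The authors' counts are not normalized; STAR, DESeq2 and the GRCm38 (mm10) build are named in the submitters' processing notes, with no version or role, and the counting program, strand setting and annotation are not given in the sources used here. Of 39017 identifiers 37693 matched GENCODE M21 (GRCm38), from which names, coordinates, lengths, GC content and transcript sequences were taken, and unmatched identifiers held 0.167% to 0.221% of a library's counts.

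Counts were fitted in R 4.3.3 with edgeR 4.0.16 (quasi-likelihood F-test, robust, TMM scaling, filter by expression over the 4 groups, a mean per group, 4 residual degrees of freedom). P-values were adjusted by Benjamini-Hochberg over 18952 genes, and standard errors derived from F. The script was tested on simulated data. Log2 CPM used a prior count of 2. The replicate number was left out of the main fit and was tried as a block. Replicate differences of the groups correlated at -0.602 to 0.190, which cannot decide whether the numbers pair the libraries. Alternatives were other scalings, DESeq2 1.42.0, no filter or a mean of at least 5 CPM, removal of the GC trend (lowess, span 0.3), fits of only the groups compared, and each library left out.

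The 10 members were always named. Of the other lists called genes were named, at most 4 per list and contrast, by size of change, and the 3 genes most like G3bp1. Some genes that this rule names are not reported here. Members, lists and tests were chosen with earlier results of these data known. Tables were computed with Python 3.11.15, pandas 2.3.3 and scipy 1.17.1.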

Additional observations from a re-analysis of the deposited data

Results flagged for a closer look

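Opposite movement in the genotypes singled out 5 members: both granule libraries lay above both total libraries in control cells and below both in knockout cells. The interaction was -1.08 for G3bp1 (adjusted p = 0.168), -2.15 for G3bp2 (adjusted p = 0.096), -1.92 for Caprin1 (adjusted p = 0.0994), -0.85 for Usp10 (adjusted p = 0.177) and -1.43 for Ubap2l (adjusted p = 0.128). None of these passed edgeR's test of the difference. Without knockout total replicate 1 the interaction was -0.63 for G3bp1, -1.52 for G3bp2, -1.32 for Caprin1, -0.64 for Usp10 and -0.87 for Ubap2l. Without knockout total replicate 2 it was -1.60, -2.76, -2.53, -1.22 and -2.01 in the same order. Usp10 was below 0 in control cells under upper-quartile scaling and library size alone, and Caprin1 was below 0 there with the GC trend removed (-0.52, and -0.47 without knockout total replicate 1 as well), so their opposite movement does not hold in those fits.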

How the results depend on the processing

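The main counts of members called were 1 and 1 (granule against total in control and in knockout cells), 0 and 0 (knockout against control in total RNA and in granules) and 0 (interaction). In that order they were 2, 4, 4, 2 and 4 with DESeq2, 2, 6, 4, 2 and 6 without a filter (beside 4001, 5161, 3407, 3404 and 3476 of 30351 genes), 1, 4, 1, 2 and 2 with the GC trend removed, 8, 4, 2, 8 and 6 with it removed and knockout total replicate 1 left out, and 6, 0, 0 and 9 when only the groups compared were fitted. Leaving out each library gave 0 to 7, 0 to 8, 0 to 9, 0 to 8 and 0 to 10. In each comparison the counts of 0 came from left-out fits that called fewer of all genes than the main fit. The highest counts came from left-out fits that called more of all genes than the main fit. The other scalings and the filter at 5 CPM moved no count of members. With the replicate block the counts were 0 throughout (581, 1898, 0, 670 and 0 of 18952 genes). With the block and the GC trend removed they were 1, 3, 0, 2 and 0 (2951, 5298, 337, 3593 and 593 genes). Replicate differences correlated between groups at -0.602 to 0.190. These correlations cannot decide whether the numbers pair the libraries, since the GC trend between replicates also enters them. With the block crossed in knockout total, chosen after seeing the data as was the GC fit without replicate 1, the counts were 1, 1, 0, 0 and 0 (2177, 3168, 94, 1571 and 71 genes). In the fits of only the groups compared, 0 of all genes were called by edgeR within knockout cells and in total RNA (4363 and 1766 at an unadjusted p under 0.05). Shares over all genes stand beside the results above for DESeq2, the GC trend removed, and the fits without knockout total replicate 1 or 2. They also stand there for the control and the granule libraries fitted alone. With the GC trend removed without knockout total replicate 1 they are given only for control cells and between granule fractions. In the remaining comparisons that fit also called more of all genes than the main fit. For the other scalings, the 5 CPM filter and the other left-out libraries shares over all genes are not given.

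Of the alternative values of single members, 802 kept direction and side of the threshold, 141 newly passed it, 14 no longer did and 33 reversed; the cause was not tested. In control granule against total RNA Usp10 turned to -0.13 (upper-quartile), -0.028 (library size) and -0.030 (5 CPM), and Caprin1, Tia1 and Tial1 to -0.52, -0.12 and -0.53 with the GC trend removed, -0.52, -0.12 and -0.54 with the block too, and -0.47, -0.063 and -0.47 without knockout total replicate 1. In knockout cells Tial1 turned to 0.012, 0.070 and 0.061 in the first 3 settings, Fmr1 to 0.065 (library size), 0.0070 (5 CPM) and 0.080 (crossed block), and with the GC trend removed without replicate 1 Atxn2 and Fmr1 to 0.19 and 0.20. Leaving out each library gave -1.60 to 0.043 for Tia1, -0.22 to 0.075 for Tial1, -1.24 to 0.14 for Atxn2, -1.62 to 0.024 for Pabpc1 and -0.76 to 0.90 for Fmr1. In total RNA Caprin1 turned to -0.024 with the GC trend removed, with or without the block, and with replicate 1 left out too Caprin1 and Atxn2 turned to -0.092 and -0.16; leaving out each library gave Atxn2 -0.28 to 1.09. The interaction of Tial1 turned to 0.47, 0.49 with the block, and 0.062 without replicate 1.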
